A study of Homo sapiens with 15 samples.

Results

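The genes described here are 8 transcription factors that mark or control the second heart field and the cardiac pacemaker: ISL1, TBX1, TBX2, TBX3, SHOX2, MEIS1, MEIS2 and NR2F2. They were chosen by name, as the rows whose Ensembl identifier carries one of these symbols in the GENCODE v44 annotation. Each symbol matched 1 row of the 48777 genes in the deposited tables, so all 8 were found. They were followed in H1 cells, an established line of human embryonic stem cells, through a laminin-based cardiac differentiation that was sampled on days 0, 4, 9, 11 and 20 with 3 biological replicates per day, 15 libraries of bulk RNA-seq in all. No group carries a genetic change, and every group comes from this 1 cell line.

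Per the labels, cells of every day grew on LN521 with LN221, recombinant laminins that coat the dish, whereas the deposited sample table gives LN521 alone for day 0. Day 0 cells were undifferentiated cells in Nutristem, a medium for pluripotent cells. At confluence on day 4 the cells received CHIR99021, a GSK3 inhibitor that activates WNT signalling, in a basal medium with B27 lacking insulin. IWP2, an inhibitor of WNT secretion, followed before day 9, and the medium contained the complete B27 supplement from day 11. The labels also hold another schedule with earlier additions, and they do not say whether the day 4 cells were collected before CHIR99021 was added. The labels give day 9 for libraries that the methods list under an earlier day, and the label is used here.

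The second heart field is a pool of progenitors that stays undifferentiated longer than the first heart field and supplies the outflow tract, the right ventricle and much of the atria. ISL1 and TBX1 are expressed in these progenitors and are lost from most of their descendants as they become contracting muscle. TBX2, TBX3 and SHOX2 keep the atrioventricular canal and the sinoatrial node from acquiring the programme of working chamber muscle, ISL1 persists in the node, MEIS1 and MEIS2 are homeobox factors that bind DNA with PBX partners, and NR2F2 (COUP-TFII) supports atrial identity.

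ISL1, TBX1 and MEIS1 had their highest mean level on day 9, and the 250 bases before their RefSeq starts are printed to show sequences of the genes with this highest mean. For TBX1 the later days overlapped with day 9 and no comparison among them passed. The sequences are those of RefSeq on GRCh38.p14, on the strand of the gene, with capitals marking a match to AGATAA, a site bound by factors of the GATA family. The windows are chr5:51383198-51383447 for ISL1, chr22:19756453-19756702 for TBX1 and chr2:66434875-66435124 for MEIS1, all on the plus strand. The ISL1 window touches an exon of the divergent RNA ISL1-DT, and the other windows hold no annotated exon. The MEIS1 window lies inside the annotated MEIS1 gene, after its start at 66433452, and so precedes an internal start.
ISL1: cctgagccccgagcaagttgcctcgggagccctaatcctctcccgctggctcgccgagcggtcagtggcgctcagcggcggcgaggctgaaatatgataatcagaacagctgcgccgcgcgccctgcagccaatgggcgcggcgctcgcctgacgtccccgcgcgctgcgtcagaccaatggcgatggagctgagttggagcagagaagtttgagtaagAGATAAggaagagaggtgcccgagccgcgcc
TBX1: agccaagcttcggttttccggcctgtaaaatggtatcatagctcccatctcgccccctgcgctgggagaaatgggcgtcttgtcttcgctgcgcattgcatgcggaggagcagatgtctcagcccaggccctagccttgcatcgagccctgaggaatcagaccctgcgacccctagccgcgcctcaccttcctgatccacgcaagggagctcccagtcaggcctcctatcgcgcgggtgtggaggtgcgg
MEIS1: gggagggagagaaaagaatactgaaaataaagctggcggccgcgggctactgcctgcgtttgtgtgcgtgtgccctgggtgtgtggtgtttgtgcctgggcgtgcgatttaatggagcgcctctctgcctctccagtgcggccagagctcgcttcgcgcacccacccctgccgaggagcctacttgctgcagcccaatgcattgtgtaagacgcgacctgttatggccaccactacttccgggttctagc

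The table of promoters had entries for 6 of the 8 genes, and none for TBX2 and TBX3. The printed windows had a GC content of 65.2% for ISL1, 62.0% for TBX1 and 59.6% for MEIS1, against a median of 58.0% over 35116 windows, and 27, 17 and 16 CpG dinucleotides against a median of 11. Searched on both strands, AGATAA occurred once in the ISL1 window and in 9.17% of all windows. The printed windows held no match to TGACAG (MEIS, 13.0% of all windows), GGTGTGA (T-box, 2.76%), CAAGTG (NKX2, 9.50%), AGGTCA (COUP, 12.1%), CTTTGA (TCF/LEF, 11.2%) or CACGTG (E-box, 6.34%). A match is a run of letters and does not show that a factor binds there.

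The 15 libraries held 11990302 to 33469703 reads assigned to genes (median 22867831). Levels are given in TPM, a unit scaled to gene length and to a fixed library total, which the authors computed from the counts with a gene length. A single gene held 20.0% of the TPM of 1 day 0 library and 17.0% of that of the day 9 library of plate 2, which lowers the TPM of every other gene there. RNA integrity numbers lay between 8.8 and 10 except at 6.1 in the day 20 library of plate 2 that the labels call 2_3. That library listed reads on 48230 genes, where the others listed 30886 to 39551, so day 20 calls of the 8 genes and counts of the gene lists are also given without it. The counts without it were added after seeing the data. Pluripotency markers summed to between 6054 and 9960 TPM on day 0 and to between 106 and 141 TPM on day 20 and cardiomyocyte markers to at most 37.8 TPM and to between 5748 and 26240 TPM on the same days. Day 20 was mixed: the summed liver and yolk sac endoderm markers stood at 22862, 908 and 24618 TPM and the mesenchymal markers at 2530, 1130 and 21851 TPM in plate 2, the library labelled 2_3 and plate 6. In bulk RNA, fewer cells of a type and less RNA per cell cannot be told apart. Whether the replicates of a day came from separate differentiations is not stated beyond the word biological, so p-values measure the spread between these libraries.

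From day 4 to day 9, 7 of the 8 genes rose from near the limit of detection to levels of up to 149 TPM. SHOX2 had too few reads to be tested, and all 7 tested genes passed an adjusted p-value of 0.05 with edgeR's quasi-likelihood test. TBX1, TBX2 and NR2F2 had at most 6 counts in each day 4 library and entered this test only through their day 9 reads. For them a call was thus nearly fixed by the filter on counts and is no independent support for a rise. Of the 21252 genes tested, day 9 levels were higher for 24.3% and lower for 24.7%. On day 0 and day 4 no library held more than 0.951 TPM of any of the 8 genes. The increase was largest for MEIS1, with a log2 fold change of 9.32 (SE 0.27), and smallest for TBX1, with 4.79 (SE 0.55), and their intervals did not overlap.

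**Figure D1:**
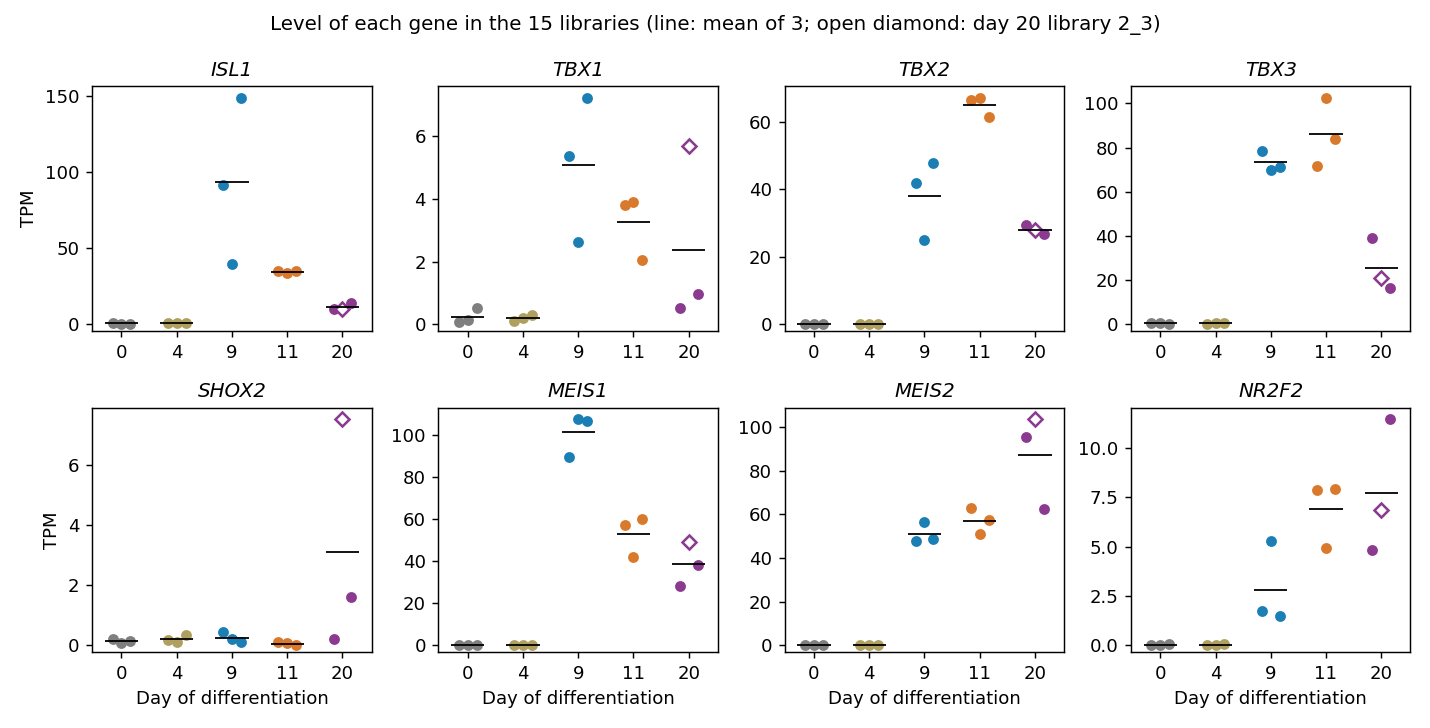
TPM of each gene in the 3 libraries of each day, on a separate linear axis for each gene, with points for libraries, a line for the mean of 3 and an open diamond for the day 20 library labelled 2_3. All 8 genes lie near 0 on days 0 and 4, and the later means are highest on day 9 for ISL1 and MEIS1, highest on day 11 for TBX2 and TBX3, and are highest on day 20 for MEIS2.

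Before day 9 all 8 genes were near the limit of detection. For day 4 against day 0, 4 of the 8 genes had enough reads to be tested (ISL1, TBX3, MEIS1 and MEIS2) and none passed, with log2 fold changes between -0.18 and 0.46 and adjusted p-values from edgeR of 0.890 to 0.985. Among all 20964 genes tested, 0% passed in either direction, 741 had an unadjusted p-value under 0.05, and DESeq2 also called 0 genes. The smallest pools of reads were those of NR2F2, with 5 counts over the 3 day 0 libraries and 4 over the 3 day 4 libraries. In the day 4 library of plate 2 NR2F2 had a count of 0, which allows up to 3 counts or 0.131 CPM, the count scaled to library size. Intervals and limits of this kind cover counting error only.

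ISL1 (ENSG00000016082, chr5:51383448-51394730, plus strand), the LIM homeobox factor that defines second heart field progenitors, had 91.7 TPM in the day 9 library of plate 2, 39.7 TPM in that of plate 6 and 149 TPM in that without a plate number. Its day 11 levels were 35.1, 33.5 and 35.0 TPM (plates 2, 5 and 6), and its day 20 levels 10.2, 9.82 and 13.9 TPM (plate 2, the library labelled 2_3 and plate 6). From day 9 on, no library of a later day reached the lowest library of the day before it, and the day 9 libraries were by far the most spread, with a mean of 93.4 ± 54.6 TPM (SD, n = 3) against 34.6 ± 0.871 TPM (SD, n = 3) on day 11.

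The log2 fold change of ISL1 on day 20 against day 9 was -3.23 (SE 0.55, 95% interval -4.50 to -1.95, adjusted p = 0.0149 from edgeR). On day 20 against day 11 it fell by 1.71 (SE 0.31, adjusted p = 0.0425 from edgeR), and 0.435% of the 21398 genes tested were lower and 1.12% higher on day 20 in that comparison. On day 11 against day 9 it was -1.51 (SE 0.45), which did not pass (adjusted p = 0.14 from edgeR), although every day 11 library lay below every day 9 library (p = 0.1 by an exact permutation test, two-sided, which cannot go lower with 3 against 3). It passed with DESeq2 (-1.52, adjusted p = 0.0118) and without the day 9 replicate of plate 6 (-1.90, adjusted p = 0.0134 from edgeR). With the plate as a block ISL1 did not pass on day 20 against day 9 (-2.68, adjusted p = 0.0553 from edgeR) or day 11 (-1.72, adjusted p = 0.136 from edgeR), and without the library labelled 2_3 both calls stood (-3.02 and -1.51, adjusted p = 0.0284 and 0.0410 from edgeR). The comparison with day 9 also failed without the day 9 replicate of plate 2 or of no plate number (adjusted p = 0.0688 and 0.0654 from edgeR), and the comparison with day 11 without any 1 of the day 11 replicates or the day 20 replicate of plate 2 (adjusted p = 0.0633 to 0.244 from edgeR). The comparisons share libraries and are not independent of each other.

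On day 9 the plate 6 replicate had the lowest ISL1 and, beside it, the highest summed markers of cardiomyocytes (1354 TPM, against 496 and 248 TPM in the replicates of plate 2 and no plate number) and of liver and yolk sac endoderm (1429 TPM, against 445 and 348 TPM). MYL7 alone made up 1179 TPM of that cardiomyocyte sum. TNNC1 and MYBPC3 were highest in the plate 2 replicate, and the other cardiomyocyte markers in the plate 6 replicate. Its mesenchymal markers (1950 TPM, against 628 and 668 TPM) and epicardial markers (101 TPM, against 46.3 and 42.2 TPM) were the highest too. The same replicate was also the lowest of day 9 for TBX1 and TBX2 and the highest for NR2F2. The part of these cells in the spread of ISL1 was not tested.

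TBX1 (ENSG00000184058, chr22:19756703-19783593, plus strand), a T-box factor of the pharyngeal and anterior second heart field that keeps progenitors dividing, was detected on day 9 at a low level. It stood at 5.39, 2.62 and 7.24 TPM on day 9 and at 3.80, 3.91 and 2.06 TPM on day 11, in the replicates as listed for ISL1. On day 20 it stood at 0.507, 5.69 and 0.963 TPM. The library labelled 2_3 lay far above the other day 20 libraries, and days 9, 11 and 20 all overlapped. No comparison among days 9, 11 and 20 passed (log2 fold change on day 20 against day 9 of -1.49, SE 0.83, adjusted p = 0.296 from edgeR).

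The value of TBX1 on day 20 turned on the library labelled 2_3. There it had 78 counts or 19.8 reads per kb of exon, within the 5th to 95th percentile range, 1.41 to 21.2 reads per kb, of 252 genes without expression before day 20. These silent genes were autosomal protein-coding genes with at least 2000 bases of exon and at most 2 counts over the 12 earlier libraries, and 251 of them had reads in this library, with a median of 7.19 reads per kb. Without it, TBX1 was lower on day 20 than on day 9 (log2 fold change -2.87, adjusted p = 0.0320 from edgeR), from 11 counts in the plate 2 replicate and 15 in the plate 6 replicate.

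**Figure D2:**
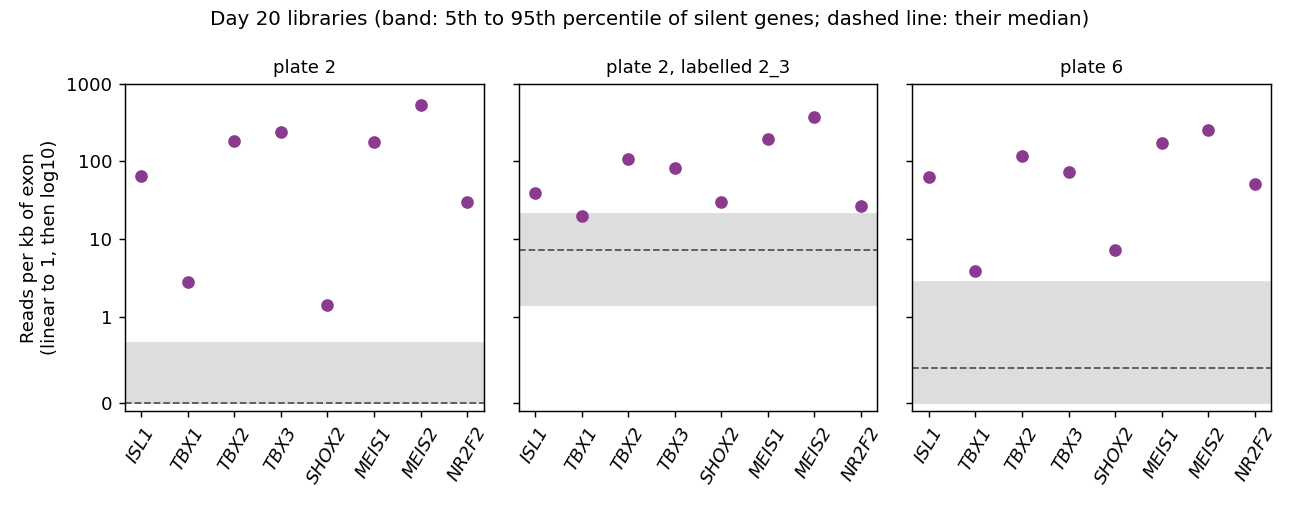
Reads per kb of exon for the 8 genes in each day 20 library (linear up to 1, log10 above), with a grey band for the 5th to 95th percentile of 252 genes silent on earlier days and a dashed line for their median. In the library labelled 2_3, TBX1 lies inside the band and NR2F2 and SHOX2 just above it, and in the other libraries all 8 genes lie above the band.

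TBX2 and TBX3 are closely related T-box repressors that hold chamber genes such as NPPA and GJA5 down in the atrioventricular canal and the nodes. TBX2 (ENSG00000121068, chr17:61399843-61409466, plus strand) stood at 41.7, 24.9 and 47.7 TPM on day 9, at 66.6, 67.1 and 61.3 TPM on day 11, and at 29.3, 27.9 and 26.6 TPM on day 20. Every day 11 library was higher than every library of the other days, and days 9 and 20 overlapped. TBX2 fell by 1.34 on the log2 scale from day 11 to day 20 (SE 0.24, 95% interval -1.89 to -0.78, adjusted p = 0.0422 from edgeR). With the plate as a block this call was lost (-1.32, adjusted p = 0.207 from edgeR), as it was without any 1 of the day 11 replicates or the day 20 replicates of plate 2 and plate 6 (adjusted p = 0.0534 to 0.251 from edgeR), and without the library labelled 2_3 it stood (-1.21, adjusted p = 0.0313 from edgeR).

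The difference in TBX2 between day 9 and day 11, a log2 fold change of 0.70 (SE 0.26), did not pass over all genes (adjusted p = 0.226 from edgeR). With the plate as a block it was 0.95 and did (adjusted p = 0.0418 from edgeR), a fit that rests on the 2 plates shared by these days.

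TBX3 (ENSG00000135111, chr12:114670255-114684175, minus strand), which marks the central conduction system in the embryo, stood at 78.6, 69.9 and 71.4 TPM on day 9 and at 71.7, 103 and 83.9 TPM on day 11. On day 20 it stood at 38.9, 20.8 and 16.2 TPM. Days 9 and 11 overlapped, and every day 20 library was lower than all of them. The log2 fold change on day 20 was -1.68 against day 9 (SE 0.40, adjusted p = 0.0410 from edgeR), where 3.31% of 21207 genes were lower and 6.72% higher. Against day 11 it was -1.87 (SE 0.40), just outside the threshold (adjusted p = 0.0657 from edgeR), and it passed in 7 of 16 alternatives, among them DESeq2 (adjusted p = 0.00106) and the fit without the day 20 replicate of plate 2 (-2.47, adjusted p = 0.0373 from edgeR). Without the library labelled 2_3 it was -1.64 (adjusted p = 0.0824 from edgeR).

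The call of TBX3 against day 9 was lost without the library labelled 2_3 (-1.45, adjusted p = 0.0507 from edgeR), without the plate 6 replicate of day 20 (adjusted p = 0.0844 from edgeR), without any 1 of the day 9 replicates (adjusted p = 0.104 to 0.162 from edgeR) and with the plate as a block (-1.81, adjusted p = 0.125 from edgeR).

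SHOX2 (ENSG00000168779, chr3:158095905-158106420, minus strand), a homeobox factor that is needed for the sinoatrial node and restrains NKX2-5 there, was at most 0.441 TPM in the 12 libraries of days 0 to 11, with 0 to 11 counts each. On day 11 it had 3, 2 and 0 counts, and the 0, in the plate 6 replicate, allows up to 3 counts or 0.121 CPM. On day 20 it had 7, 149 and 36 counts, or 0.223, 7.53 and 1.60 TPM, in the order of libraries given for ISL1. The plate 2 replicate thus lay within the range of the earlier days, and the other day 20 libraries lay above it.

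SHOX2 could be tested on day 20 against day 9 alone, with a log2 fold change of 3.23 (SE 1.14, 95% interval 0.56 to 5.90) that did not pass (adjusted p = 0.122 from edgeR). DESeq2 called it (3.18, adjusted p = 0.0167), and so did edgeR without the day 20 replicate of plate 2 (3.72, adjusted p = 0.0453) and with all 15 libraries in 1 fit (3.18, adjusted p = 0.0267). In the library labelled 2_3 its 29.7 reads per kb lay above the 95th percentile of the silent genes, 21.2, and below their maximum of 38.3, and the median of the silent genes corresponds to 36.0 of its 149 counts. In the plate 6 replicate its 7.18 reads per kb lay above the 95th percentile of 2.77 and below the maximum of 15.4. Without the library labelled 2_3 the log2 fold change was 1.80 (adjusted p = 0.236 from edgeR).

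MEIS1 and MEIS2 are homeobox cofactors of the same family, and their order of abundance differed between days 9 and 20. MEIS1 (ENSG00000143995, chr2:66433452-66573869, plus strand) stood at 89.7, 108 and 107 TPM on day 9, at 57.3, 42.0 and 60.3 TPM on day 11 and at 28.3, 49.1 and 38.4 TPM on day 20. Every day 9 library was above every later library, and days 11 and 20 overlapped in TPM although not in log2 CPM scaled by TMM, the trimmed mean of M-values. This difference turned on the library labelled 2_3. It was the highest of day 20 in TPM and the lowest in CPM scaled by TMM (70.8, against 80.6 in plate 2 and 106 in plate 6). MEIS1 was the 1 gene of the 8 past the threshold on day 11 against day 9, where 1% of 20679 genes were lower and 1.39% higher, and it fell by 0.98 on the log2 scale (SE 0.18, 95% interval -1.41 to -0.55, adjusted p = 0.0420 from edgeR).

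On day 20 against day 9 MEIS1 fell by 1.60 on the log2 scale (SE 0.25, 95% interval -2.18 to -1.01, adjusted p = 0.0119 from edgeR), and without the library labelled 2_3 by 1.64 (adjusted p = 0.00991 from edgeR). With the plate as a block this later difference did not pass (-1.51, adjusted p = 0.119 from edgeR), and the difference between days 9 and 11 did (-0.78, adjusted p = 0.00519 from edgeR). The call of day 11 was lost without any 1 library of day 9 or the day 11 replicate of plate 2 or plate 6 (adjusted p = 0.0577 to 0.175 from edgeR) and stood in 7 of 16 alternatives, and that of day 20 without any 1 library of day 9 (adjusted p = 0.0543 to 0.0747 from edgeR).

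MEIS2 (ENSG00000134138, chr15:36889204-37101299, minus strand) stood at 47.7, 56.4 and 48.6 TPM on day 9, at 62.7, 50.9 and 57.4 TPM on day 11 and at 95.3, 104 and 62.3 TPM on day 20. Days 9 and 11 overlapped, and on day 20 the plate 6 replicate lay within the TPM range of day 11 and the other replicates above it. In CPM scaled by TMM the library labelled 2_3 (148) also lay within the day 11 range (142 to 181). On that scale the plate 2 replicate (268) alone lay above it. No difference among these days passed, with log2 fold changes of 0.11 (SE 0.14) on day 11 against day 9 and 0.58 (SE 0.25, 95% interval -0.01 to 1.18, adjusted p = 0.192 from edgeR) on day 20 against day 9. Without the library labelled 2_3 the latter was 0.60 (adjusted p = 0.107 from edgeR).

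The ratio of MEIS2 to MEIS1, taken within each library, removes the scaling between libraries. It was 0.532, 0.523 and 0.454 on day 9, 1.09, 1.21 and 0.953 on day 11, and 3.37, 2.11 and 1.62 on day 20. The libraries of neighbouring days did not overlap. With ratios below 1 on day 9 and above 1 on day 20, MEIS1 was the more abundant in every day 9 library and MEIS2 in every day 20 library. Day 11 libraries lay on both sides of 1. The geometric mean was 0.502, then 1.08 and then 2.26, a log2 difference of 1.11 and then 1.06 (exact two-sided permutation tests, p = 0.1 each, the smallest that 3 against 3 allow). A ratio does not tell which of its genes changed.

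**Figure D3:**
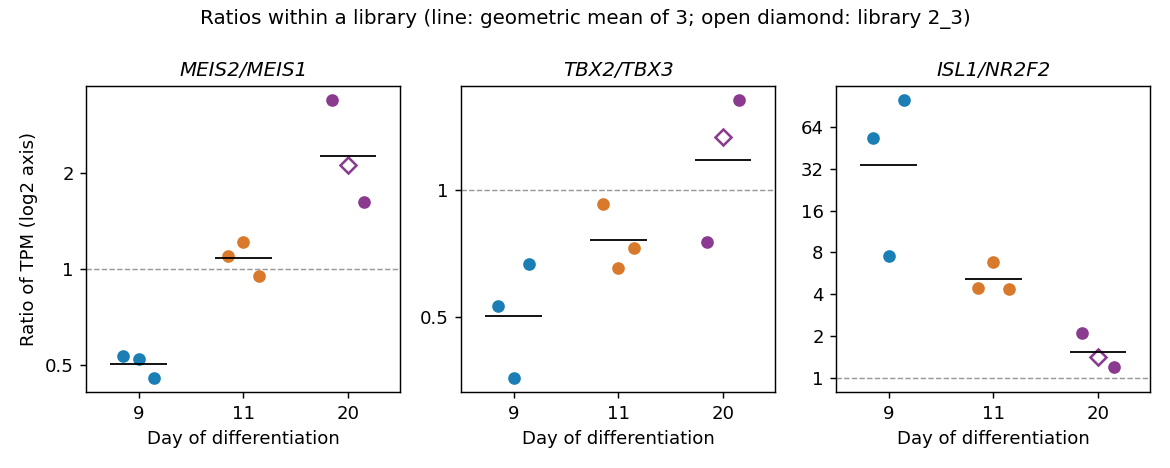
Ratio of TPM within each library for MEIS2 to MEIS1, TBX2 to TBX3 and ISL1 to NR2F2 on days 9, 11 and 20, on log2 axes that differ between panels, with points for libraries, a line for the geometric mean of 3 and a dashed line at a ratio of 1. The MEIS2 to MEIS1 ratio moves from below 1 on day 9 to above 1 on day 20, and the ISL1 to NR2F2 ratio is lower on each later day without overlap.

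NR2F2 (ENSG00000185551, chr15:96325938-96340263, plus strand), an orphan nuclear receptor of atrial and venous cells, stayed low. It stood at 1.72, 5.27 and 1.51 TPM on day 9, at 7.86, 4.92 and 7.94 TPM on day 11 and at 4.84, 6.87 and 11.5 TPM on day 20. All 3 days overlapped with each other. The log2 fold change on day 11 against day 9 was 1.28 (SE 0.47, 95% interval 0.18 to 2.37) and did not pass (adjusted p = 0.218 from edgeR). It did with the plate as a block (1.31, adjusted p = 0.0496 from edgeR) and without the day 9 replicate of plate 6, the highest of that day (1.99, adjusted p = 0.0336 from edgeR). On day 20 against day 11 the estimate was 0.06 (SE 0.43, 95% interval -0.93 to 1.04) and its sign differed between alternatives, and 26.7% of its counts in the library labelled 2_3 would be met by the median of the silent genes.

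The ratio of ISL1 to NR2F2 moved furthest of the 3 ratios plotted, from a geometric mean of 34.1 on day 9 to 1.54 on day 20. ISL1 was 53.2, 7.53 and 98.6 times as abundant as NR2F2 on day 9, 4.47, 6.82 and 4.41 times on day 11 and 2.10, 1.43 and 1.22 times on day 20. The ratio of TBX2 to TBX3 was 0.531, 0.356 and 0.667 on day 9 and 0.752, 1.34 and 1.64 on day 20, without overlap between these days, while day 11 (0.928, 0.654 and 0.731) overlapped with both. The ratio of ISL1 to NKX2-5, the homeobox factor that follows ISL1 in committed cardiac progenitors, was 8.17, 3.34 and 5.14 on day 9 and 0.172, 0.0731 and 0.349 on day 11. NKX2-5 itself rose by 3.79 on the log2 scale over this step (SE 0.65, adjusted p = 0.0346 from edgeR).

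Ordered by mean TPM, the genes ran on day 9 as MEIS1 (101 ± 10.2, SD, n = 3), ISL1 (93.4 ± 54.6), TBX3 (73.3 ± 4.64), MEIS2 (50.9 ± 4.78), TBX2 (38.1 ± 11.8), TBX1 (5.08 ± 2.32), NR2F2 (2.83 ± 2.11) and SHOX2 (0.255 ± 0.170). The ISL1 libraries ran from below every library of TBX3 and MEIS2 to above every library of MEIS1, so its place was not settled by these replicates, and TBX1 and NR2F2 overlapped. On day 11 the order was TBX3 (86.1 ± 15.5, SD, n = 3), TBX2 (65.0 ± 3.18), MEIS2 (57.0 ± 5.94), MEIS1 (53.2 ± 9.78), ISL1 (34.6 ± 0.871), NR2F2 (6.91 ± 1.72), TBX1 (3.26 ± 1.04) and SHOX2 (0.0592 ± 0.0528), and MEIS2 overlapped with TBX2 and MEIS1. On day 20 it was MEIS2 (87.0 ± 21.8, SD, n = 3), MEIS1 (38.6 ± 10.4), TBX2 (27.9 ± 1.34), TBX3 (25.3 ± 12.0), ISL1 (11.3 ± 2.29), NR2F2 (7.73 ± 3.40), SHOX2 (3.12 ± 3.88) and TBX1 (2.39 ± 2.87), and MEIS1, TBX2 and TBX3 overlapped, as did ISL1 with NR2F2, NR2F2 with SHOX2 and SHOX2 with TBX1.

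**Figure D4:**
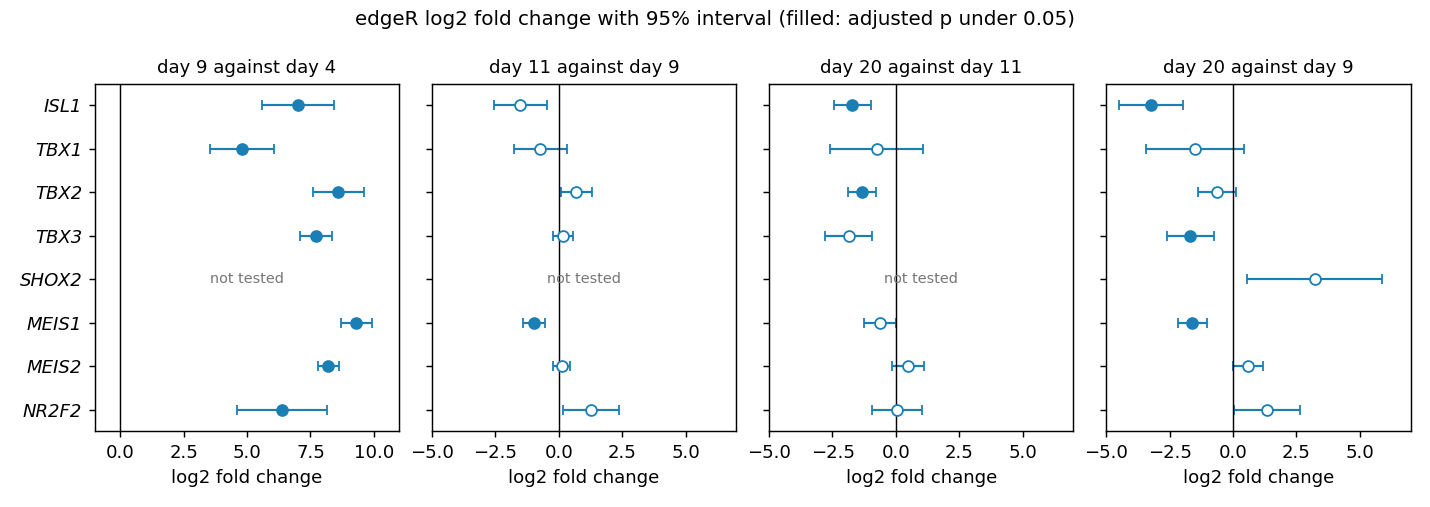
log2 fold change of each gene from edgeR in 4 comparisons of days, with bars for the 95% interval and filled points for an adjusted p-value under 0.05 over all genes tested. All 7 genes tested are higher on day 9 than on day 4, and the later filled points (MEIS1, ISL1, TBX2 and TBX3) are all to the left of 0.

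Across days 9 to 20 the calls among the 8 genes were all decreases in the edgeR fit without a block: 1 on day 11 against day 9, 2 on day 20 against day 11 and 3 on day 20 against day 9. Of all genes tested, 1%, 0.435% and 3.31% were lower and 1.39%, 1.12% and 6.72% higher in these comparisons. With other settings increases passed as well, of TBX2 (0.95, adjusted p = 0.0418 from edgeR) and NR2F2 (1.31, adjusted p = 0.0496 from edgeR) on day 11 with the plate as a block. SHOX2 on day 20 passed as given for that gene. Neighbouring days in the order of each gene's mean log2 CPM overlapped in all 4 steps for TBX1 and SHOX2 and in 1 of 4 for ISL1 and MEIS1, the step between days 0 and 4. NR2F2 was highest on day 11 by log2 CPM and on day 20 by TPM, and the order of days was otherwise the same on both scales.

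Genes known beside ISL1 and TBX1 in the second heart field rose with them. Of the 16 in the list, all were tested on day 9 against day 4, 14 rose and none fell, with a median log2 fold change of 5.89 against 0.01 over all genes tested. They included HAND2 (10.37), the GATA factor GATA6 (9.70), FGF10 (8.82), the growth factor of this field, and FOXC1 (8.76). Over all genes tested at this step, 24.3% rose and 24.7% fell. On day 11 against day 9, 4 were higher (FGF8, MEF2C, NKX2-5 and WNT11) and none lower, with a median of -0.05 against 0.00 over all genes tested, and none of the 16 passed on day 20 against day 11. Of all genes tested, 1.39% and 1.12% were higher and 1% and 0.435% lower in these comparisons. On day 20 against day 9 the list divided: FGF10 (-2.91, SE 0.37), FOXC1 (-3.33, SE 0.48) and GATA6 (-1.61, SE 0.28) were lower, and NKX2-5 (3.85, SE 0.58), MEF2C (1.85, SE 0.45) and SEMA3C (2.09, SE 0.41) were higher, with adjusted p-values from edgeR of 0.00691 to 0.0445. Of all genes tested, 6.72% were higher and 3.31% lower on day 20 than on day 9. With the library labelled 2_3 left out, FOXC2 was lower in addition, 3 were higher (NKX2-5, SEMA3C and WNT11), and MEF2C did not pass (1.80, adjusted p = 0.0599 from edgeR). In that fit 11.0% of all genes tested were higher and 7.82% lower.

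Of the 13 genes of the sinoatrial node list, 6 were higher on day 20 than on day 9 and none lower, with a median log2 fold change of 2.80 against 0.10 over all genes tested. In this comparison 6.72% of all genes tested were higher and 3.31% lower. HCN4, the main pacemaker channel, stood at 11.8, 9.50 and 16.8 TPM on day 9 and at 118, 182 and 35.5 TPM on day 20 (log2 fold change 2.86, SE 0.53, adjusted p = 0.0198 from edgeR). It was already at 20.1, 12.7 and 16.3 TPM on day 0 and at 13.6, 16.4 and 24.9 TPM on day 4. TBX18, a T-box factor of the sinus venosus that is also an epicardial marker, stood at 1.12, 0.951 and 0.543 TPM on day 9 and at 13.9, 16.0 and 9.73 TPM on day 20 (3.73, SE 0.36, adjusted p = 0.00383 from edgeR). CPNE5, POPDC2, CACNA1D and KCNJ5 were the other 4. Without the library labelled 2_3 the same 6 were higher (HCN4 by 2.54, adjusted p = 0.0279 from edgeR) and GJC1 was lower, where 11.0% of all genes tested were higher and 7.82% lower. Several of these genes, HCN4 among them, are also expressed in young working myocardium. On day 9 against day 4, 6 of the 13 rose and SMOC2 and VSNL1 fell, where 24.3% of all genes tested rose and 24.7% fell. On day 11 against day 9, 1 (CACNA1D) rose, and none passed on day 20 against day 11. Of all genes tested, 1.39% and 1.12% were higher and 1% and 0.435% lower in these comparisons.

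**Figure D5:**
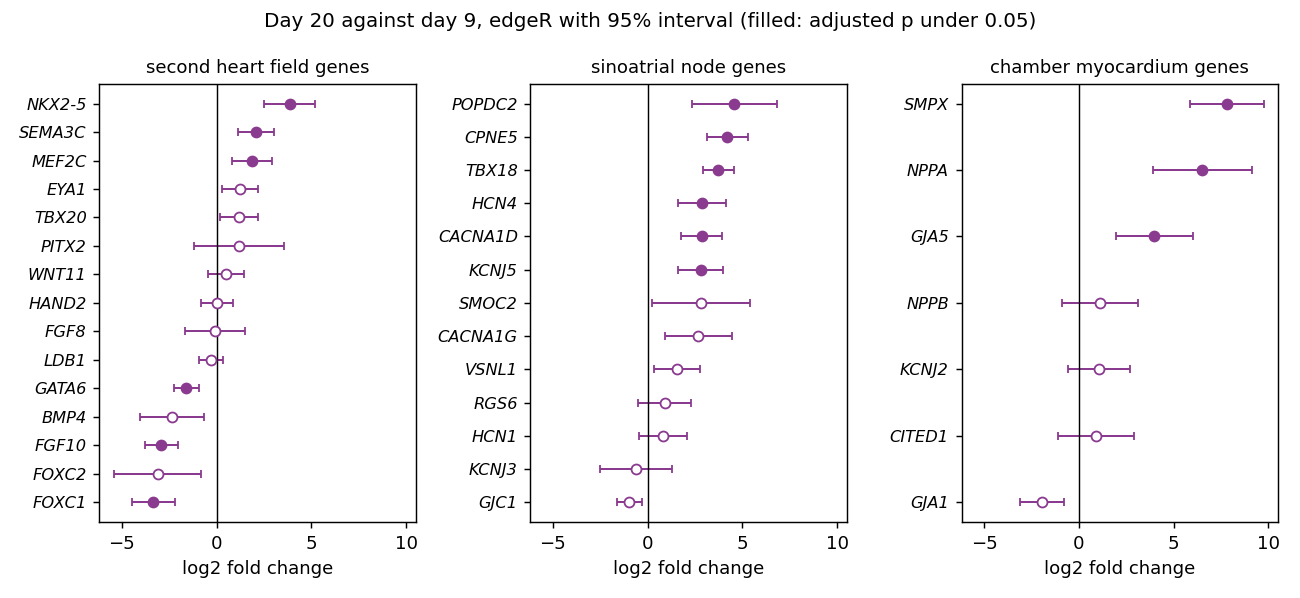
log2 fold change of day 20 against day 9 from edgeR for genes of 3 lists (2 genes are not shown), with bars for the 95% interval and filled points for an adjusted p-value under 0.05 over all genes tested. Filled points lie on both sides of 0 for the second heart field and to the right of 0 for the sinoatrial node and the chamber myocardium.

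Chamber myocardium genes, which TBX2 and TBX3 are known to hold down, included 4 of 8 that were higher on day 20 than on day 9 and none that was lower. Among them were NPPA (6.51, SE 1.11), SMPX (7.81, SE 0.83) and GJA5 (3.99, SE 0.86), with adjusted p-values from edgeR of 0.00425 to 0.0310. In this comparison 6.72% of all genes tested were higher and 3.31% lower, and the list median was 2.01 against 0.10 over all genes. TBX3 was lower there as given above, and TBX2 did not pass (-0.64, adjusted p = 0.258 from edgeR). From day 4 to day 9 NPPB was higher and GJA1 lower, on day 11 against day 9 SMPX was higher and GJA1 lower, and none of the 8 passed on day 20 against day 11. On day 20 against day 11, 1.12% of all genes tested were higher and 0.435% lower. Of the 4 ventricular genes, 3 were higher on day 20 than on day 11 (HEY2, 2.87, IRX4, 3.94, and MYL2, 9.42) and none lower. Of these MYL2 alone passed without the library labelled 2_3 (9.26, adjusted p = 0.0286 from edgeR). HEY2 and IRX4 then had adjusted p-values from edgeR of 0.0582 and 0.0536. Of the 6 atrial genes 4 of 5 tested (HEY1, MYL7, NR2F1 and TBX5) rose from day 4 to day 9, as did 24.3% of all genes tested. None of the 6 passed on day 20 against day 11, and MYL7 and SLN were higher on day 20 than on day 9, SLN alone without the library labelled 2_3. Cardiomyocyte markers moved with these genes: 6 of 8 were higher on day 11 than on day 9 (1.39% of all genes tested) and 8 of 8 higher on day 20 than on day 9. Of the endoderm markers 3 of 8, and of the mesenchymal markers 2 of 7, were also higher on day 20 than on day 9. None of the endoderm or mesenchymal markers was at 0 counts in a day 20 library. Between day 20 libraries they did not follow the cardiomyocyte markers, which summed to 24831, 26240 and 5748 TPM in plate 2, the library labelled 2_3 and plate 6. In plate 6 the endoderm (24618 TPM) and mesenchymal markers (21851 TPM) were highest, and in plate 2 the endoderm markers were high too (22862 TPM). Of the other cell types looked for on day 20 against day 9, 2 of 6 epicardial markers (TBX18 and UPK3B), 1 of 8 endothelial markers (EMCN) and 1 of 2 neural markers tested (STMN2) were higher, and 6 of 7 pluripotency markers were lower. When the library labelled 2_3 was left out, 7 of 8 cardiomyocyte, 6 of 8 endoderm, 2 of 7 mesenchymal, 2 of 6 epicardial, 2 of 8 endothelial and 1 of 3 neural markers tested were higher. In that fit 11.0% of all genes tested were higher and 7.82% lower. As before, 6 of 7 pluripotency markers were lower and 4 of 8 chamber genes higher. The part of a changing mix of cells in the decreases of ISL1, MEIS1, TBX2 and TBX3 was not tested.

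Among the partners of MEIS1 and MEIS2, 5 of 9 rose from day 4 to day 9 and none fell: MEIS3 (2.42), PBX3 (2.20), PKNOX2 (1.89), PBX2 (1.04) and PKNOX1 (0.53). In that comparison 24.3% of all genes tested rose and 24.7% fell, and the median log2 fold change was 0.53 for the list against 0.01 over all genes. PBX3 stood at 239, 220 and 166 TPM on day 9 and at 52.6, 74.1 and 119 TPM on day 20, without overlap and without a call. The repressor TGIF1, which competes for the same sites, was lower on day 11 than on day 9 (-1.06, SE 0.17, adjusted p = 0.0248 from edgeR), and again on day 20 against day 9. No other partner passed in those comparisons, and none on day 20 against day 11. Of all genes tested, 1% were lower on day 11 and 3.31% on day 20, each against day 9. The counts on day 20 were the same without the library labelled 2_3.

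Retinoic acid patterns the posterior second heart field. Of 10 genes of its pathway, 4 rose (RARB, ALDH1A2 and STRA6 among them) and 4 fell (CRABP1, CYP26A1, CYP26C1 and DHRS3) from day 4 to day 9. Over all genes tested, 24.3% rose and 24.7% fell. CYP26A1, which degrades retinoic acid, stood at 449, 242 and 82.6 TPM on day 4, at 12.4, 13.4 and 26.4 TPM on day 9 and at 2.52, 1.17 and 1.77 TPM on day 11, and it was lower at both steps (-3.86, SE 0.64, and -3.31, SE 0.43, adjusted p = 0.00189 and 0.0173 from edgeR). RARB, a receptor and a target of the pathway, rose by 5.03 at the first step (SE 0.32) and was lower on day 20 than on day 9 (-1.76, SE 0.32, adjusted p = 0.0186 from edgeR). CYP26B1 was higher on day 20 than on day 11 (3.20, SE 0.60, adjusted p = 0.0469 from edgeR), with 1.99, 4.58 and 1.39 TPM on day 20, and the library labelled 2_3 was the highest. Without it the call of CYP26B1 stood (2.79, adjusted p = 0.0337 from edgeR). So did that of RARB (-1.96, adjusted p = 0.0165 from edgeR). CYP26B1 and DHRS3 then also passed as higher on day 20 than on day 9.

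Relatives of the 8 genes behaved in several ways. From day 4 to day 9, 24.3% of all genes tested rose and 24.7% fell. In the T-box family 5 of 9 tested rose from day 4 to day 9 (TBX5, 9.20, TBX20, 7.85, EOMES, 6.50, TBX18, 5.10, and TBX4, 4.73) and MGA fell by 0.41. EOMES, a factor of mesendoderm, was lower on day 11 than on day 9 (-3.58, SE 0.61, adjusted p = 0.0330 from edgeR). EOMES and LHX1 passed as lower on day 20 than on day 9 without the library labelled 2_3, and did not with it. In the LIM homeobox family of ISL1, LHX1 and LHX2 rose and LHX4, LHX5 and LMX1B fell from day 4 to day 9, and ISL2 was at most 0.998 TPM in every library other than the one labelled 2_3, where it stood at 7.23 TPM. NR2F1, the closest relative of NR2F2, was listed at 0 in all 6 libraries of days 0 and 4 and stood at 2.46, 5.67 and 0.934 TPM on day 9, and NR2F6 did not pass in any comparison (57.4 to 150 TPM in all libraries).

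The genes most like each of the 8 over the 15 libraries, among 11865 protein-coding genes that reached a day mean of 10 CPM, were named by Pearson's r of log2 CPM. These correlations rest largely on the shared step between the 6 libraries of days 0 and 4 and the 9 later ones, so r over the later 9 is given beside them, and all share library depth and day. ISL1 was most like PDGFRA, a marker of early cardiac mesoderm (r = 0.990, and 0.976 over the later 9), then BMPER (0.988 and 0.946) and CBLN2 (0.983 and 0.922). Among the 3 genes most like TBX1 were GATA2 (0.936 and 0.876) and CBLN2 (0.934 and 0.802). MEIS1 was most like GATA6 (0.994 and 0.895), BMP10 (0.989 and 0.888) and DLC1 (0.989 and 0.929).

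TBX3 was most like FOXA2 (r = 0.992, and 0.943 over the later 9) and FOXA1 (0.990 and 0.928), which are factors of endoderm, and GATA6 (0.989 and 0.860). TBX2 was most like RAI1 (0.996 and 0.861) and GATA4 (0.992 and 0.743). For MEIS2 the likeness to GATA4 (0.992), ALPK2 (0.990) and TBX20 (0.990) was 0.356, 0.523 and 0.582 over the later 9 libraries. NR2F2 was most like CLIP4 (0.987 and 0.885), FRMD4B (0.983 and 0.825) and RSPO3 (0.983 and 0.819). SHOX2, nearly silent before day 20, was most like MUC6 (0.911, and 0.831 without the library labelled 2_3), MUC3A (0.822 and 0.676) and HGF (0.776 and 0.842).

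Among pairs of the 8 genes over the later 9 libraries, r was 0.920 for ISL1 with MEIS1, 0.847 for TBX2 with TBX3, 0.804 for ISL1 with TBX3 and 0.719 for ISL1 with TBX1. It was -0.886 for TBX3 with SHOX2, -0.838 for TBX2 with SHOX2 and -0.761 for MEIS2 with TBX1. Without the library labelled 2_3 these were 0.891, 0.706, 0.662 and 0.940, and -0.772, -0.691 and -0.777. The order of the pairs thus depended on that library. SHOX2 had at most 11 counts in each library of days 9 and 11 and 7 in the day 20 library of plate 2. The r values of SHOX2 therefore rest on few reads.

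Several of the 8 genes share exon bases with a gene on the other strand. The library kit marks strand, but no source used here says whether the counting used it, so reads of such partners cannot be told apart with certainty. The shared length was 1437 bases for MEIS1 with MEIS1-AS2 and 19 with MEIS1-AS3, 280 for TBX1 with GNB1L, 196 for TBX3 with TBX3-AS1, 156 for SHOX2 with RSRC1, 431 for MEIS2 with ENSG00000259460, whose level was not analysed here, and 28 for TBX2 with ENSG00000267131. RSRC1 was at 16.0 to 28.6 TPM and GNB1L at 3.05 to 4.72 TPM in all 15 libraries, including those where SHOX2 and TBX1 had few reads.

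Several noncoding neighbours rose with their partners from day 4 to day 9. ISL1-DT, which starts just before ISL1 on the other strand and shares no exon with it, rose by 5.14 on the log2 scale (SE 0.40), TBX2-AS1, which lies across TBX2 without a shared exon base, by 6.12 (SE 0.33), MEIS1-AS2 by 7.65 (SE 0.70) and MEIS1-AS3 by 6.85 (SE 0.49). TBX2-AS1 stood at 44.8, 35.1 and 40.4 TPM on day 9, near the level of TBX2, and at 36.5, 31.5 and 29.2 TPM on day 20. MEIS1-AS3 was lower on day 11 than on day 9 with MEIS1 (-1.48, SE 0.28, adjusted p = 0.0429 from edgeR). On day 20 it stood at 0.911, 30.7 and 6.99 TPM, with the library labelled 2_3 again the highest.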

How the data were processed

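Bulk RNA-seq of 15 libraries (5 days, 3 replicates each) of H1 cells was used. Libraries were made from total RNA with a stranded kit. Per the labels and the study's methods, the authors aligned paired reads to GRCh38 with STAR 2.5.2b, counted them per gene with featureCounts 1.5.1, and left out ribosomal RNA and mitochondrial genes. Whether the counting used strand is not given in the sources used here. The authors deposited the read counts, a table of TPM computed from them with a gene length that is not stated, and a sample table with the RNA integrity score, the fraction of uniquely mapped reads and the lane of each library. Of 48777 identifiers, 46872 were found in GENCODE v44, whose symbols and GRCh38 coordinates are used.

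The 8 genes and the lists of other genes were chosen with earlier results of these data known. Genes were named if they were 1 of the 8, passed the threshold or led a list by TPM, lay within 5 kb of 1 of the 8, or were among the 3 protein-coding genes most correlated with it. ISL2, NR2F6, PBX3 on day 20, RSRC1 and GNB1L were named in the text after their values were seen. A few genes that the rule names are not reported here, though the counts of their lists include them.

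Counts of the 6 libraries of each comparison were tested with edgeR 4.0.16 in R 4.3.3 (a minimum count of 10, a minimum total of 15, TMM scaling, quasi-likelihood test), and p-values were adjusted by Benjamini-Hochberg across every gene in the fit (threshold 0.05). The standard error is the fold change divided by the square root of its F statistic, and intervals are at 95%. log2 CPM used a prior count of 2. Single values were compared by exact two-sided permutation tests (scipy 1.17.1). Alternatives used DESeq2 1.42.0, limma 3.58.1 on log2 TPM after adding 1 or 0.1, other scalings and filters, all 15 libraries, plate or lane as a block, and each replicate left out. The fits were tested on simulated data. Plate numbers come from the labels: deviations of libraries of the same plate had a mean r of 0.248 in 2 pairs (day 11 against day 9), 0.0678 in 3 (day 20 against day 11) and 0.0642 in 3 (day 20 against day 9).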

Additional observations from a re-analysis of the deposited data

How the results depend on the processing

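The rise of the 7 genes from day 4 to day 9 held in every alternative run, including each replicate left out (7 genes throughout, with 8553 to 10514 genes called, 10406 in the reported fit and 6209 with all 15 libraries in 1 fit). On day 4 against day 0, 0 of the 8 genes and 0 of all genes passed, also with each replicate left out (0 to 0), and 64 genes passed with no filter. Leaving out single replicates, the log2 fold changes there ran from -0.030 to 1.196 for ISL1, -0.26 to 0.42 for TBX3, -0.55 to 0.23 for MEIS1 and -0.70 to 0.37 for MEIS2. The sign changed for MEIS1 without day 0 replicate 1 (0.23) or 3 (0.14) or day 4 replicate 2 (0.06) or 3 (0.15), for ISL1 without day 0 replicate 2 (-0.030), for MEIS2 without day 0 replicate 3 (0.37) and for TBX3 without day 4 replicate 2 (-0.26).

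On day 11 against day 9, where 1 of the 8 genes and 495 of all genes passed, DESeq2 gave 2 and 1674, no filter gave 1016 genes, all 15 libraries gave 0 of the 8, and limma gave 0 of the 8 with 180 genes after adding 1, 159 after adding 0.1 and 61 with no filter. With the plate as a replicate block 3 and 1971 passed, and with each replicate left out 0 to 2 and 0 to 573. On day 20 against day 11, with 2 and 332 in the reported fit, DESeq2 gave 1871 genes, no filter gave 0 of the 8, and all 15 libraries gave 4 and 3132. The replicate block gave 0 and 3, the lane as a block 0 and 137, and leaving out each replicate 0 to 2 and 0 to 510. NR2F2 changed sign there with no filter (-0.069), with the plate as a block (-0.16), with the lane as a block (-0.052), and without day 11 replicate 2 (-0.20) or day 20 replicate 3 (-0.51), with a range of -0.51 to 0.25 over the replicates left out. On day 20 against day 9, with 3 and 2127, DESeq2 gave 4198 genes, all 15 libraries 5597, the replicate block 0 and 477, the lane as a block 1239 genes, and leaving out each replicate 0 to 4 and 204 to 4074. With no filter on low counts ISL1 and TBX2 on day 20 against day 11 (adjusted p = 0.0569 and 0.0953 from edgeR) and TBX3 on day 20 against day 9 (0.0720) also lost their calls. The cause of these differences was not tested.

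No plate block was possible in the comparisons of day 4 with day 0 and with day 9, which share fewer than 2 plate numbers, and no lane block for day 4 against day 0. Single libraries held few or no reads of SHOX2 before day 20 and of NR2F2, TBX1 and TBX2 before day 9. The part of sequencing depth in this was not tested.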
